A study of Mus musculus with 3 samples.

Results

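The genes described here were 66 mouse genes for proteins that bind RNA in neurons and act on splicing, editing, stability or translation of messenger RNA. Of these, 34 were listed by symbol: the Rbfox, Nova, Srrm, Ptbp, Mbnl, Khdrbs, Celf, Elavl, Msi and Fmr families, with Pum2, Adar and Adarb1. A further 11 were the Srsf genes with a number after the prefix, and 21 were all symbols beginning with Hnrnp. Together they were 66 of the 32531 gene symbols in the count files. The rule that picks them uses gene names and no measured value.

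RNA was taken from the whole cerebral cortex of mice of the cross Htr3a-Cre (NO176)::Rosa26-LSL-EGFP/Rpl10a, at an adult age. Where the Htr3a driver of line NO176 makes the recombinase Cre, a stop cassette at Rosa26 is removed and the ribosomal protein Rpl10a is made with an EGFP tag. Tagged ribosomes were pulled down with antibodies against EGFP and their RNA was sequenced, a method known as TRAP (translating ribosome affinity purification). The 3 libraries formed 1 group, immunopurified replicates 1, 2 and 3, and every animal carried the driver and the tag. The design names interneurons as the cells of interest, and the tag marks any cell in which Cre has acted, whatever its type. Unpurified cortex was not analysed here, so no enrichment was computed, and genes were set against each other inside each library. Nothing in the labels gives the replicates as separate animals. The p-values therefore rest on the spread between these 3 samples alone, and that spread may be technical. A lower value can mean fewer cells of a type or less RNA per cell, and bulk samples cannot tell these apart.

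Counts assigned to genes summed to 14383545, 13951332 and 14461053 in replicates 1, 2 and 3. Levels are given in TPM, which corrects counts for the annotated exon length of each gene and scales them to the same total in every library. Means carry the SD over the 3 replicates (n = 3) after the sign ±. Markers of GABAergic neurons summed to 4035 to 4402 TPM over 10 genes, and markers of excitatory neurons to 3435 to 3805 TPM over 12 genes. Gad2, an enzyme of GABA synthesis, averaged 2195 TPM in the first sum, and Camk2a, a kinase of excitatory synapses, averaged 2542 TPM in the second. Other excitatory markers were lower, with Slc17a7 at 196 TPM, Cux2 at 16.0 TPM and Emx1 at 1.13 TPM. Astrocyte markers summed to 609 to 719 TPM over 10 genes, oligodendrocyte markers to 247 to 422 TPM over 9 genes, precursors of oligodendrocytes to 44.8 to 63.5 TPM over 6 genes, microglia to 20.9 to 35.3 TPM over 8 genes and endothelial cells to 4.40 to 5.44 TPM over 7 genes. Replicate 1 stood apart from the others: it was the lowest library for 40.4% of all genes tested, and its oligodendrocyte sum of 422 TPM compared with 286 and 247 TPM in replicates 2 and 3. Where a call of a member changed without replicate 1, the value without it is given.

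Before a message leaves the nucleus, proteins that bind short RNA motifs decide which exons are kept, and neurons use a set of such proteins that many other tissues lack. Rbfox, Nova, Srrm and Khdrbs proteins act on exons of synaptic and channel genes, and Ptbp proteins hold neuronal exons back until the neuron matures. SR proteins (Srsf genes) generally promote the use of exons, while hnRNP proteins (Hnrnp genes) package nascent RNA and often counter them. Celf, Elavl, Msi, Pum and Fmr proteins also act in the cytoplasm, on the stability and translation of the message.

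Most of these genes were abundant in ribosome-bound RNA. The median over the 64 members that passed a filter of 1 CPM (counts scaled to library size, without length) was 91.8 TPM, against 22.5 TPM over all 12456 genes tested. Each gene was set against the median gene of its library on the scale log2(TPM + 0.1), and 54 of the 64 were called above it and 6 below it (limma, adjusted over all genes tested). The same rule called 43.2% of all genes above and 42.7% below. Those below were Ptbp1, Khdrbs2, Srrm3, Msi1, Fxr2 and Srsf4, and those on neither side were Hnrnpf, Hnrnph3, Hnrnpll and Srsf9. Mbnl3 and Hnrnpa1l2 were not tested, because they fell below the filter. A level of 100 TPM in every library was reached by 29 of the 66 members, of which 16 were listed genes, 2 were Srsf genes and 11 were Hnrnp genes. Over all genes tested, 1769 of 12456 reached that level. With genes of low counts kept in, the median gene lay lower and Srrm3, at 0.18, and Fxr2, at 0.33, were no longer below it (log2 differences, limma, adjusted p = 0.360 and 0.0903), nor was Msi1 called, at -0.63 (adjusted p = 0.0518). Hnrnpf, Hnrnph3, Hnrnpll and Srsf9 were then called above it.

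**Figure D1:**
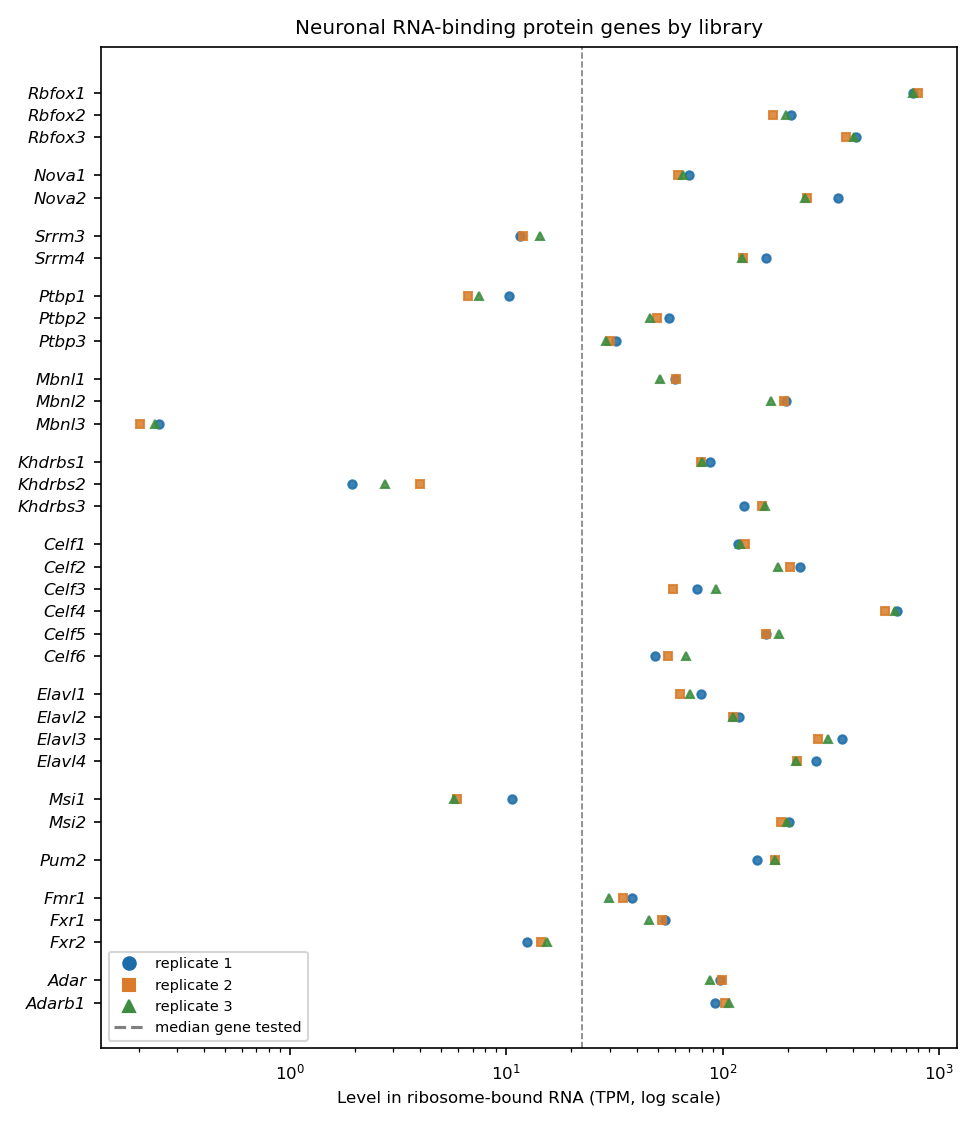
Level of each listed gene (TPM, log axis) in replicates 1, 2 and 3, grouped by family, with a dashed line at the median gene tested. Rbfox1 and Celf4 lie farthest to the right, and Ptbp1, Khdrbs2, Mbnl3, Msi1, Srrm3 and Fxr2 lie left of the line in every library.

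With merged exon lengths Rbfox1 led the set, a rank that depended on the length used. Rbfox proteins bind GCAUG in introns beside alternative exons, and Rbfox3 is the antigen of the neuronal marker NeuN. Rbfox1 (ENSMUSG00000008658.16, chromosome 16 from 5885355 to 7411526, GRCm38, plus strand) was the most abundant of the 66 genes, at 760.2, 799 and 754 TPM in replicates 1, 2 and 3 (771 ± 24.3). Rbfox3 on chromosome 11 had 410.4, 369 and 406 TPM (395 ± 22.6). Rbfox2 on chromosome 15, which is also made in many tissues outside the brain, had 206, 171 and 196 TPM (191 ± 18.3). The ranges of the 3 genes did not overlap. Rbfox1 was 4.04-fold above Rbfox2, or 2.02 on the log2 scale (SD 0.18, limma, adjusted p = 3.58e-05), and Rbfox3 was 2.07-fold above it, or 1.05 (SD 0.06, limma, adjusted p = 7.11e-04), each in 3 of 3 libraries. By the same test 5.26% of all genes lay above Rbfox2 and 88.2% below it. Without length correction the log2 differences were 1.13 for Rbfox1 and 0.57 for Rbfox3, and both were still called. The rank of Rbfox1 among all members did not hold. Without length correction Celf2 (1132, 1064 and 931 CPM) and Celf4 (1048, 969 and 1067 CPM) lay above Rbfox1 (641, 709 and 662 CPM). With the longest transcript as length Celf4 lay above Rbfox1 in every library.

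The proteins share a nearly identical RNA recognition motif, which their coding sequences show. Over the whole coding sequence Rbfox1 and Rbfox2 were 72.5% identical and Rbfox1 and Rbfox3 71.1%. The stretches below are 60 bases of coding sequence around the RNP1 element, the strip of the motif that contacts RNA, found by a search of the translated transcript of GENCODE M21. They are shown because reads of the 3 genes must be told apart by such differences, and capitals mark bases that differ from Rbfox1.
Rbfox1: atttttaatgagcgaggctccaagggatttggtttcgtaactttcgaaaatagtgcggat
Rbfox2: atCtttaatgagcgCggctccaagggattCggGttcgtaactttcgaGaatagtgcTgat
Rbfox3: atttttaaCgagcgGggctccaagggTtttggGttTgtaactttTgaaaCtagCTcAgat
Rbfox2 differed from Rbfox1 at 6 of the 60 bases, and 0 codons coded for another residue. Rbfox3 differed at 10 bases, and 2 codons coded for another residue. The longest identical run between the coding sequences was 29 bases for Rbfox1 and Rbfox2 and 17 bases for Rbfox1 and Rbfox3. None of the 3 genes shared a stretch of 50 bases with another gene's transcript (0% in each).

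Nova proteins bind clustered short motifs through KH domains and were first known as targets of autoimmune antibodies in a neurological disease. Nova2, on chromosome 7 from 18925888 to 18965319, had 339, 246 and 239 TPM (274 ± 56.0). Nova1, on chromosome 12, had 69.8, 62.4 and 65.7 TPM (65.9 ± 3.73). Replicate 1 was high for Nova2, and the lowest Nova2 value lay well above the highest Nova1 value. The 4.11-fold difference, 2.04 on the log2 scale (SD 0.22), was called (limma, adjusted p = 1.83e-04), where 18.7% of all genes lay above Nova1 and 69.2% below. Of the Nova2 exons, 31.7% was overlapped by Gm26821, a long noncoding RNA on the opposite strand, and the strand setting of the counting is not given in the sources used here.

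Srrm4 (also called nSR100) and its relative Srrm3 promote the inclusion of neuronal microexons, which are only a few codons long. Srrm4 had 159, 123 and 123 TPM (135 ± 20.3), on chromosome 5 from 116439275 to 116591817. Srrm3 had 11.6, 11.98 and 14.4 TPM (12.6 ± 1.52). The pair differed 10.6-fold, 3.40 on the log2 scale (SD 0.34, limma, adjusted p = 4.59e-07), although replicate 1 was the highest for Srrm4 and the lowest for Srrm3. By the same test 55.6% of all genes lay above Srrm3 and 28.5% below it.

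Ptbp1 represses neuronal exons in non-neuronal cells and gives way to Ptbp2 as neurons form. Ptbp2 had 56.5, 49.7 and 46.3 TPM (50.8 ± 5.18). Ptbp3, best known from blood cells, had 32.0, 30.2 and 28.8 TPM (30.4 ± 1.59). Ptbp1, on chromosome 10 from 79854427 to 79864771, had only 10.3, 6.67 and 7.45 TPM (8.15 ± 1.93), from 135, 89 and 102 reads. All 3 genes were highest in replicate 1, and no Ptbp1 value reached the lowest value of either relative. Ptbp2 was 6.26-fold and Ptbp3 3.75-fold above Ptbp1, log2 differences of 2.65 (SD 0.22) and 1.91 (SD 0.27). The limma fit against Ptbp1 gave both the same standard error, 0.34, and adjusted p-values of 1.31e-14 and 3.12e-08. With the spread of each gene alone, the adjusted p-values were 0.0137 and 0.0208. By the same test 62.8% of all genes lay above Ptbp1 and 18.0% below. Exons on the opposite strand covered 20.7% of Ptbp1 (E130317F20Rik, Gm17134 and Plppr3). Of its stretches of 50 bases, 18.3% were shared with transcripts of other genes, so its level is uncertain. Against the median gene, Ptbp1 was lower by a log2 value of -1.47 (limma, adjusted p = 2.23e-04), and at -0.47 with genes of low counts kept in it was not called (adjusted p = 0.0918). Ptbp3 lay above the median gene by 0.44 (limma, adjusted p = 0.0159), a call lost without replicate 2 (0.46, adjusted p = 0.0970) and with the longest transcript as length (0.13, adjusted p = 0.445).

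Muscleblind proteins bind CUG and CCUG repeats and are trapped by the expanded repeats of myotonic dystrophy. Mbnl2, on chromosome 14, had 195, 192 and 167 TPM (185 ± 15.2). Mbnl1, on chromosome 3, had 59.9, 60.7 and 51.3 TPM (57.3 ± 5.22). Both were lowest in replicate 3, and their log2 difference was even across libraries, 1.69 with an SD of 0.03 (3.22-fold, limma, adjusted p = 1.61e-04). Among all genes, 20.7% lay above Mbnl1 and 65.2% below it. The difference was 1.05 without length correction and 1.07 with the longest transcript, and called in both. Mbnl3, on the X chromosome, had 6, 5 and 6 reads, which is 0.249, 0.203 and 0.238 TPM.

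Khdrbs proteins regulate the splicing of neurexins, the presynaptic adhesion proteins. Khdrbs3 (SLM2) had 126, 151 and 156 TPM (144 ± 16.2). Khdrbs2 (SLM1), on chromosome 1 from 32172714 to 32658568, had 1.94, 4.01 and 2.76 TPM (2.90 ± 1.04), from 55, 116 and 82 reads. Khdrbs1 (Sam68), which is made in most cells, had 87.0, 79.5 and 80.5 TPM (82.3 ± 4.05). With merged exon lengths Khdrbs2 was the scarcest of the 64 members tested, and all its values lay far below those of both relatives. Without length correction Srsf4 (3.96, 4.87 and 5.53 CPM) lay below Khdrbs2 (3.82, 8.31 and 5.67 CPM) in replicates 2 and 3. Khdrbs2 was 28.6-fold below Khdrbs1, -4.84 on the log2 scale (SD 0.57, limma, adjusted p = 9.50e-05), where 15.2% of all genes lay above Khdrbs1 and 74.1% below. Khdrbs3 lay 1.75-fold above Khdrbs1, 0.80 on the log2 scale (SD 0.24, limma, adjusted p = 0.00506). That call depended on length, at 0.38 with the longest transcript (adjusted p = 0.0581) and -0.0054 without length correction (adjusted p = 0.973).

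**Figure D2:**
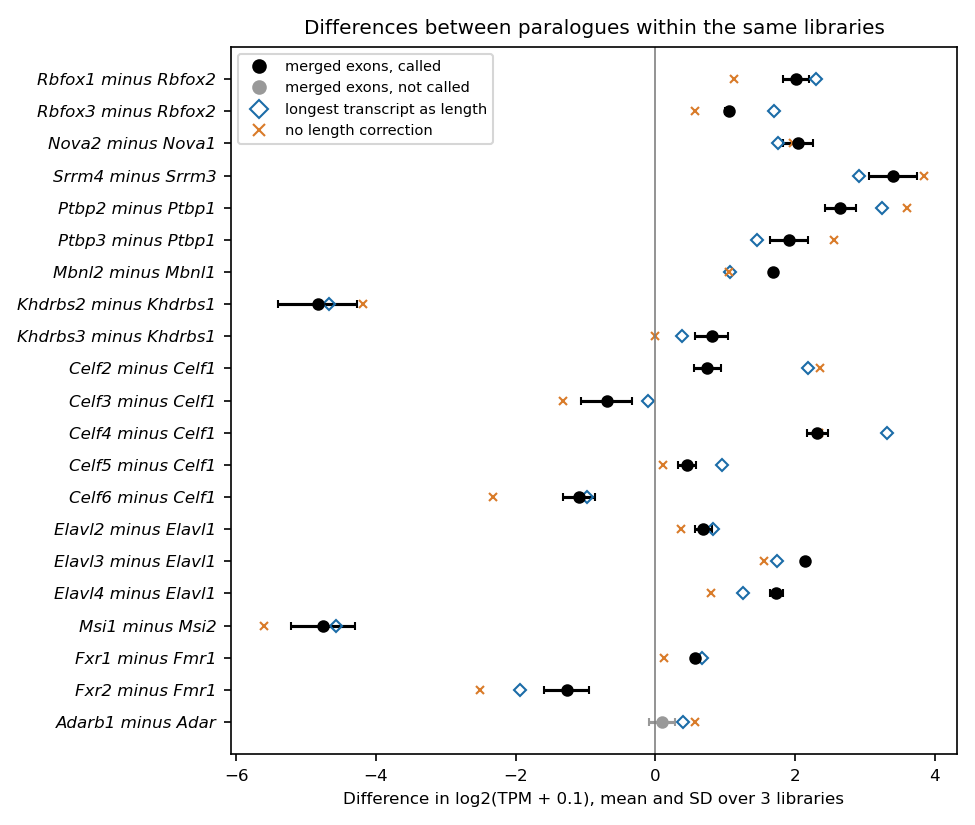
Log2 difference between each paralogue and the gene it was set against (TPM + 0.1), as mean and SD over 3 libraries, with values from other length corrections as open symbols and crosses. Khdrbs2 and Msi1 lie near -5, Srrm4 lies beyond 3, and Khdrbs3, Celf3, Celf5, Elavl2, Fxr1 and Adarb1 move to or away from 0 with the length used.

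All 6 Celf genes lay above the median gene. Celf proteins bind GU-rich RNA, and Celf1 and Celf2 are made in many tissues while Celf3 to Celf6 are made mainly in the nervous system. Celf4, on chromosome 18 from 25477632 to 25754157, whose loss causes seizures in mice, had 637, 559.9 and 623 TPM (606 ± 41.0). With merged exon lengths it was the most abundant member after Rbfox1. Celf2 had 228, 204 and 180.0 TPM (204 ± 24.1), and Celf5 had 159, 158 and 182 TPM (166 ± 13.3). Celf3 had 76.2, 59.0 and 92.7 TPM (75.9 ± 16.9), and Celf6 had 48.5, 55.5 and 67.3 TPM (57.1 ± 9.50). Celf1 had 117, 126 and 121 TPM (121 ± 4.65). With merged exon lengths no Celf4 value came near those of the other members of the family. Without length correction Celf2 lay above Celf4 in replicates 1 and 2 (1132 and 1064 against 1048 and 969 CPM). In replicate 3 Celf2 lay below Celf4 (931 against 1067 CPM). Celf4 was 4.99-fold above Celf1, 2.32 on the log2 scale (SD 0.15, limma, adjusted p = 3.40e-05), and Celf6 was 2.14-fold below it, at -1.10 (SD 0.23, limma, adjusted p = 9.77e-04). Of all genes, 9.98% lay above Celf1 and 81.7% below.

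Celf4 and Celf6 were called with the other lengths too. With the longest transcript Celf4 stood at 3.32 and Celf6 at -0.97, and without length correction at 2.34 and -2.32. The other 3 Celf genes were also called, with values that moved with the processing. Celf2 lay above Celf1 by 0.74 on the log2 scale (SD 0.20, limma, adjusted p = 0.00429). The value was 2.18 when the longest transcript gave the length and 2.36 without length correction. The merged exons of Celf2 span 25884 bases, against 8446 for Celf1. Celf3 lay below Celf1 at -0.70 (SD 0.37, limma, adjusted p = 0.0141), a call lost without replicate 2 (-0.50, adjusted p = 0.0983), with the longest transcript (-0.10, adjusted p = 0.608) and with its own spread alone (adjusted p = 0.0883). Celf5 lay above Celf1 by 0.45 (SD 0.13, limma, adjusted p = 0.0217), a call lost without replicate 2 or 3 (adjusted p = 0.0873 and 0.130) and without length correction (0.11, adjusted p = 0.449).

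Elavl proteins stabilise messages with AU-rich elements and also act on splicing. Elavl1 (HuR) is made in most cells, and Elavl2, Elavl3 and Elavl4 (HuB, HuC and HuD) are the neuronal forms. Elavl3 had 356, 276 and 308 TPM (313 ± 40.0), and Elavl4 had 269.5, 221 and 219 TPM (236 ± 28.7). Elavl2 had 119, 112 and 111 TPM (114 ± 4.15), and Elavl1, on chromosome 8 from 4285382 to 4325413, had 79.4, 63.3 and 70.4 TPM (71.0 ± 8.03). All 4 were highest in replicate 1, and the order Elavl3, Elavl4, Elavl2, Elavl1 held in each library. Elavl3 was 4.40-fold above Elavl1, 2.14 on the log2 scale (SD 0.02, limma, adjusted p = 5.81e-05), and Elavl4 was 3.32-fold above it, at 1.73 (SD 0.09, limma, adjusted p = 1.38e-04). Elavl2 was 1.61-fold above Elavl1, at 0.68 (SD 0.12, limma, adjusted p = 0.00805), which did not pass without replicate 2 (0.62, adjusted p = 0.0603), without replicate 3 (0.70, adjusted p = 0.05) or without length correction (0.37, adjusted p = 0.0699). By the same test 16.8% of all genes lay above Elavl1 and 69.9% below.

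Over 60 coding bases around RNP1, the neuronal forms differ from Elavl1 more than the Rbfox genes differ from each other. The residues of the RNP1 element itself are the same in all Elavl sequences shown, and the changed residues lie beside it. The lines below give 60 coding bases around RNP1 of the first RNA recognition motif, from GENCODE M21, with capitals where a base differs from Elavl1.
Elavl1: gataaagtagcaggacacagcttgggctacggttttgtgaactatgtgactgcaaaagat
Elavl2: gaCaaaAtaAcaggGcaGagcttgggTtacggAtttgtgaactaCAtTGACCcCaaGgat
Elavl3: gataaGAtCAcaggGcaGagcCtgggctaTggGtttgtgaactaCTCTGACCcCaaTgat
Elavl4: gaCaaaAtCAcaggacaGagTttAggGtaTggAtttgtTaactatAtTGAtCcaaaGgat
Elavl2 differed from Elavl1 at 16 bases, Elavl3 at 19 and Elavl4 at 17, with 6, 7 and 6 codons for another residue. Over the whole coding sequence Elavl3 and Elavl4 were the closest pair of the family, at 78.1% identity, and the longest run they shared was 29 bases.

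With merged exon lengths, the Musashi genes differed most after Khdrbs2. Musashi proteins repress translation, and Msi1 is known from neural stem cells and astrocytes. Msi1, on chromosome 5 from 115429599 to 115455698, had 10.6, 5.94 and 5.73 TPM (7.44 ± 2.77), from 170, 97 and 96 reads. Msi2, on chromosome 11, had 203, 187 and 198 TPM (196 ± 8.25). Msi1 was 27.1-fold below Msi2, -4.76 on the log2 scale (SD 0.46, limma, adjusted p = 2.01e-05), where 5.39% of all genes lay above Msi2 and 89.0% below. Replicate 1 was the high library for Msi1, and the astrocyte markers also summed highest there (719 TPM, against 609 and 630.1 TPM). Most of that sum came from Slc1a2 (420, 342 and 347 TPM) and Aldoc (220, 186 and 191 TPM). In scaled counts 7 of the 10 astrocyte markers were highest in replicate 1, and 2, Gfap and S100b, were lowest there. The part of astrocytes in the difference of Msi1 between libraries was not tested. The coding sequences of Msi1 and Msi2 shared a run of 44 bases, the longest between any 2 members of the same family.

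Pum2, a Pumilio protein that represses translation through UGUA-containing sites, had 144, 174 and 174 TPM (164 ± 17.3). Replicate 1 was its lowest library, and Pum2 lay above the median gene by 2.86 on the log2 scale (limma, adjusted p = 6.87e-08).

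Fmr1 encodes FMRP, the translational repressor that is lost in fragile X syndrome, and Fxr1 and Fxr2 are its relatives. Fxr1 had 54.1, 52.2 and 45.4 TPM (50.6 ± 4.60). Fxr2 had 12.4, 14.4 and 15.4 TPM (14.1 ± 1.495). Fmr1, on the X chromosome from 68678541 to 68717963, had 37.9, 34.8 and 29.8 TPM (34.2 ± 4.05). Fxr1 and Fmr1 were both highest in replicate 1 and Fxr2 was lowest there, and the 3 ranges did not overlap. Fxr2 was 2.42-fold below Fmr1, -1.27 on the log2 scale (SD 0.32, limma, adjusted p = 0.00235), and -2.52 without length correction. Fxr1 was 1.48-fold above Fmr1, 0.57 on the log2 scale (SD 0.05, limma, adjusted p = 0.0139), which did not pass without replicate 2 (0.56, adjusted p = 0.131) or without length correction (0.12, adjusted p = 0.450). Among all genes 30.8% lay above Fmr1 and 51.1% below.

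The editing enzymes Adar (ADAR1) and Adarb1 (ADAR2) convert adenosine to inosine, and Adarb1 edits glutamate receptor messages. Adarb1 had 92.5, 103 and 107 TPM (101 ± 7.60), and Adar had 97.1, 99.0 and 87.2 TPM (94.4 ± 6.34). Adarb1 was the higher in 2 of 3 libraries, and the log2 difference of 0.10 was smaller than its SD of 0.19 (limma, adjusted p = 0.556). By the same test 13.0% of all genes lay above Adar and 76.8% below. With other lengths the pair was called, at 0.40 with the longest transcript (adjusted p = 0.0480) and 0.57 without length correction (adjusted p = 0.0132). Exons of Chrnb2, on the opposite strand, overlap 16.8% of the Adar exons.

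Across the listed families, 21 pairs were tested and 15 were called above the gene they were set against, 5 below and 1 on neither side. With merged exon lengths the largest gaps were those of Khdrbs2, Msi1, Srrm4 and Ptbp2, and with the longest transcript Celf4 (3.32) lay above Ptbp2 (3.25) and Srrm4 (2.92). Khdrbs3, and Adarb1 among the pairs not called, were the genes whose sign changed under an alternative setting.

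The Srsf genes had a median of 55.2 TPM, against 101 TPM over the listed genes, and that difference was not tested. SR proteins carry an RNA recognition motif and an arginine-serine tail. Srsf5 stood at 276, 316 and 361 TPM (318 ± 42.2), on chromosome 12 from 80945504 to 80950507. Srsf2 (SC35), a marker of nuclear speckles, stood at 107, 116 and 128 TPM (117 ± 10.5), and Srsf7, an adaptor for export of messages, at 64.1, 80.5 and 65.2 TPM (69.9 ± 9.15). At the low end were Srsf4 with 5.81, 6.79 and 7.78 TPM (6.79 ± 0.985), Srsf6 with 23.9, 30.8 and 32.0 TPM (28.9 ± 4.38) and Srsf9 with 16.2, 59.3 and 48.0 TPM (41.2 ± 22.3). Srsf12, Srsf11, Srsf3, Srsf1 and Srsf10 had means of 65.8, 57.3, 55.2, 50.4 and 41.7 TPM.

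Against Srsf1, Srsf5 was higher by a log2 value of 2.65 (SD 0.15, 6.26-fold, limma, adjusted p = 2.66e-05). Srsf2 was higher by 1.21 (SD 0.10, limma, adjusted p = 3.94e-04) and Srsf7 by 0.46 (SD 0.12, limma, adjusted p = 0.0233). Srsf4 was lower at -2.88 (SD 0.16, 7.38-fold, limma, adjusted p = 2.27e-05) and Srsf6 at -0.81 (SD 0.15, limma, adjusted p = 0.00270). The remaining 5 of 10, Srsf3, Srsf9, Srsf10, Srsf11 and Srsf12, were not called, and 23.7% of all genes lay above Srsf1 and 62.8% below. Without length correction Srsf2 was not called (0.26, adjusted p = 0.123) and Srsf7 changed side (-0.22, adjusted p = 0.189), and Srsf7 also lost its call without replicate 2 (0.40, adjusted p = 0.193) or 3 (0.52, adjusted p = 0.0624). With the longest transcript as length, Srsf3 (1.001), Srsf10 (0.53), Srsf11 (1.53) and Srsf12 (0.39) were called above Srsf1. Without length correction Srsf3 (0.58) and Srsf11 (0.75) were called above it, and Srsf12 (-0.47, adjusted p = 0.0237) and Srsf9 (-2.27, adjusted p = 0.00114) below it. Srsf9 also turned on a library. Its difference from Srsf1, -0.49 with all 3 libraries (limma, adjusted p = 0.230), was 0.03 without replicate 1 (adjusted p = 0.837) and -0.69 without replicate 3 (adjusted p = 0.0250). Against the median gene Srsf9 stood at 0.68 (limma, adjusted p = 0.0545), and it was called above it without replicate 1 (1.21, adjusted p = 3.86e-07) and without replicate 3 (0.49, adjusted p = 0.0278) and below it without length correction (-0.76, adjusted p = 0.0173). Exons on the opposite strand covered 43.0% of Srsf4 (Gm12992) and 25.3% of Srsf2 (Mettl23 and Mfsd11). Srsf6 lay above the median gene by 0.36 (limma, adjusted p = 0.0374), and not without replicate 2 (0.32, adjusted p = 0.251) or replicate 3 (0.29, adjusted p = 0.200).

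**Figure D3:**
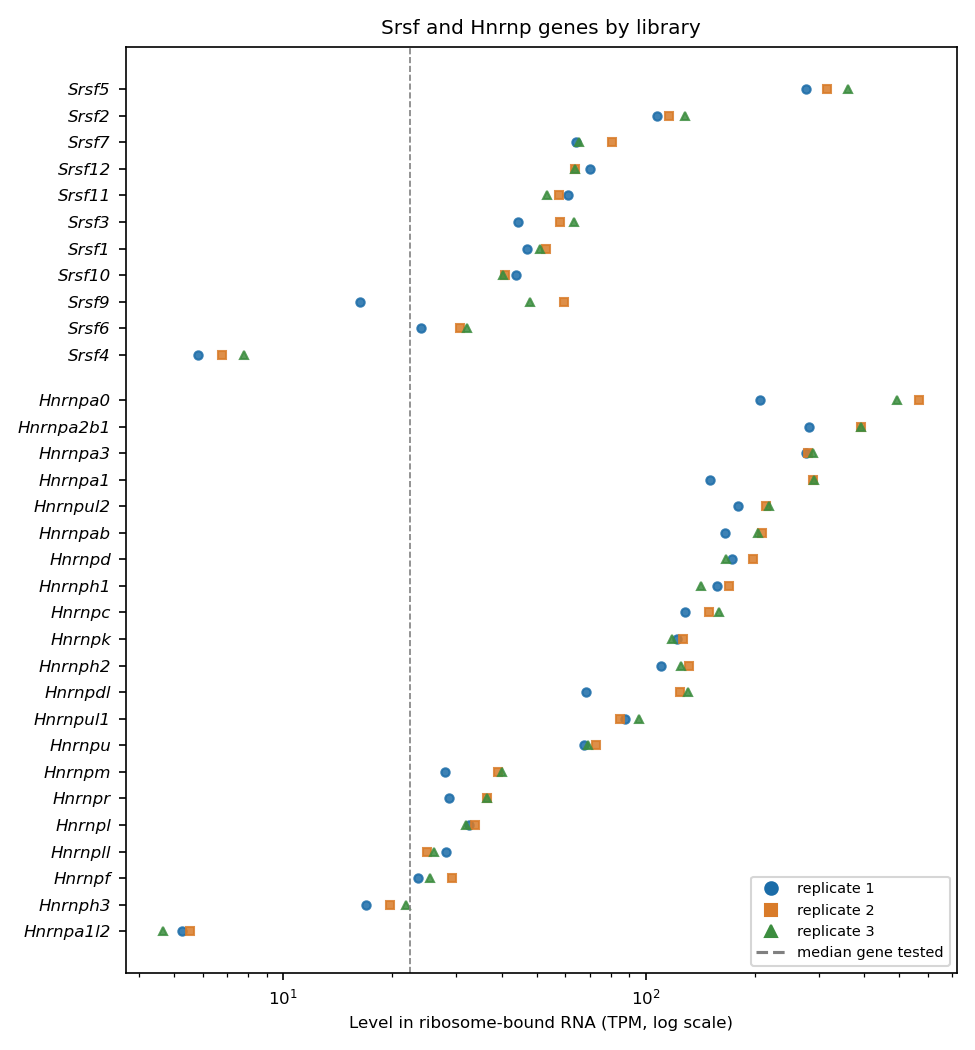
Level of each Srsf and Hnrnp gene (TPM, log axis) in replicates 1, 2 and 3, in falling order of the mean, with a dashed line at the median gene tested. In replicate 1 the points of Srsf9, Hnrnpa0, Hnrnpa1 and Hnrnpdl lie clearly left of those of replicates 2 and 3.

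The Hnrnp genes had a median of 122 TPM over the 20 tested. Hnrnpa0, on chromosome 13 from 58125879 to 58128556, had 206, 568 and 493 TPM (422 ± 191). Hnrnpa2b1, which carries messages into dendrites and processes of glia, had 282, 392 and 391 TPM (355 ± 63.5). Hnrnpa3 had 276, 279.9 and 290.0 TPM (282 ± 7.07). Replicate 1 was the lowest library for all 3, by a wide margin for Hnrnpa0 and by little for Hnrnpa3. The lowest genes were Hnrnpa1l2, which the annotation gives as a processed pseudogene, with 5.27, 5.53 and 4.67 TPM (5.16 ± 0.442), Hnrnph3 with 16.9, 19.7 and 21.8 TPM (19.5 ± 2.42) and Hnrnpf with 23.5, 29.3 and 25.3 TPM (26.0 ± 2.97). The 3 Hnrnpa1l2 values rested on 14, 15 and 13 reads.

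Hnrnpk, a KH-domain protein that binds C-rich RNA, had 122, 127 and 118 TPM (122 ± 4.43), and 19 genes were set against it. Called above it were 8, namely Hnrnpa0, Hnrnpa1, Hnrnpa2b1, Hnrnpa3, Hnrnpab, Hnrnpd, Hnrnph1 and Hnrnpul2. Called below it were 8, namely Hnrnpf, Hnrnph3, Hnrnpl, Hnrnpll, Hnrnpm, Hnrnpr, Hnrnpu and Hnrnpul1, and Hnrnpc, Hnrnpdl and Hnrnph2 were not called. Over all genes 9.91% lay above Hnrnpk and 81.8% below it. Hnrnpa2b1 was 2.87-fold above Hnrnpk, 1.52 on the log2 scale (SD 0.28, limma, adjusted p = 4.18e-04). Hnrnpl, which binds CA repeats, was 3.72-fold below it, at -1.90 with an SD of 0.01 (limma, adjusted p = 6.48e-05).

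Several of these calls turned on the length or on a library. With the longest transcript as length, Hnrnpd (-0.46, adjusted p = 0.0157) and Hnrnph1 (-0.42, adjusted p = 0.0221) passed below Hnrnpk, and Hnrnpa0 (0.54, adjusted p = 0.162), Hnrnpa3 (0.15, adjusted p = 0.283) and Hnrnpul2 (0.09, adjusted p = 0.556) were not called. Hnrnpa1 and Hnrnpab changed side under both other lengths, and Hnrnpa0 was not called without length correction (0.39, adjusted p = 0.287). Hnrnph2 was called below Hnrnpk under both (-0.99, adjusted p = 8.77e-04 with the longest transcript, and -0.57, adjusted p = 0.00841 without length correction), and Hnrnpdl without length correction (-0.66, adjusted p = 0.0394). With the spread of each gene alone, Hnrnpa0 (adjusted p = 0.0745) and Hnrnpa1 (adjusted p = 0.108) lost their calls. Hnrnpr (-0.08, adjusted p = 0.608), Hnrnpul1 (-0.04, adjusted p = 0.805) and Hnrnpu (0.03, adjusted p = 0.804) lost their calls without length correction. Leaving out replicate 2 ended the calls of Hnrnpa1, Hnrnpab, Hnrnpd, Hnrnph1 and Hnrnpul1, at log2 differences of 0.80, 0.61, 0.50, 0.32 and -0.39. Hnrnpa1 (0.75, adjusted p = 0.0505) and Hnrnph1 (0.39, adjusted p = 0.0998) also lost theirs without replicate 3, and Hnrnph1 (0.34, adjusted p = 0.0753) and Hnrnpul1 (-0.44, adjusted p = 0.0505) without replicate 1. The merged exons of Hnrnpa0 and Hnrnpa1 measure 2678 and 3153 bases, against 6466 for Hnrnpk.

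Some members shared sequence with transcripts of other genes, either copies elsewhere or genes that overlap them on the same or the opposite strand. The share of 50-base stretches of a gene's transcripts found in transcripts of other genes had a median of 6.04% over the Hnrnp genes, 0.882% over the Srsf genes and 0.257% over the listed genes, and the difference was not tested. A share of at least 10% was found for 8 of 21 Hnrnp, 5 of 11 Srsf and 3 of 34 listed genes. For Nova2, Srsf4, Srsf2, Hnrnpab and Adar most of the share came from a gene on the opposite strand. The 13.5% share of Hnrnpm came from March2, which overlaps 14.7% of its exons on the same strand. Hnrnpf was highest at 61.9%, followed by Hnrnpa1l2 at 56.7%, and Hnrnpa1 had 28.2% and Hnrnpa3 27.1%. Among 285 pairs within families, the longest run of identical coding bases was 44, below the 50-base length searched. Reads without a unique alignment made up 11.2%, 11.3% and 13.1% of all records in replicates 1, 2 and 3 and stayed out of the counts, so the levels of genes with such copies are uncertain.

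Differences between the 3 libraries were small for most of these genes, though detectable at these depths. A chi-square test of each gene's 3 counts against those predicted by TMM-scaled library totals (edgeR's trimmed mean of M-values) found variation beyond counting error for 52 of 64 members, and for 74.3% of all 12949 genes tested. Those called were 30 of 33 listed genes, 7 of 11 Srsf genes and 15 of 20 Hnrnp genes. The ratio of the highest to the lowest scaled count had a median of 1.20 over the members, against 1.40 over all genes. At least 1.5 was reached by 8 members, or 12.5%, against 41.0% of all genes. Low counts widen such ratios by counting error, and the members were more abundant than most genes (median 91.8 against 22.5 TPM). The sets were not matched for abundance, so these values do not show that the members vary less. Without replicate 1, 25 members were called, 17 of them listed genes and 8 of them Srsf or Hnrnp genes, against 42.7% of all genes. Without replicate 3, 39 members were called, of which 22 were listed genes, against 54.9% of all genes.

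The 8 members that varied most were Srsf9 (3.59-fold between its highest and lowest library), Hnrnpa0 (2.71-fold), Khdrbs2 (2.03-fold), Msi1 (1.91-fold), Hnrnpa1 (1.90-fold), Hnrnpdl (1.86-fold), Ptbp1 (1.58-fold) and Celf3 (1.55-fold). Scaled counts of Srsf9 were 5.39, 19.3 and 15.4 CPM in replicates 1, 2 and 3 (edgeR TMM scaling, chi-square adjusted p = 6.00e-23). For Hnrnpa0 they were 111, 300.0 and 257 CPM (chi-square adjusted p = 7.06e-264), for Hnrnpa1 95.0, 180.4 and 178 CPM (chi-square adjusted p = 1.74e-93) and for Hnrnpdl 66.2, 118 and 123 CPM (chi-square adjusted p = 1.98e-57). All 4 of these genes were low in replicate 1 alone, while Msi1 and Ptbp1 were high there. Khdrbs2, at 4.01, 8.13 and 5.53 CPM, was lowest in replicate 1 and highest in replicate 2. At the other end, Hnrnpa3 at 299.5, 298 and 305 CPM and Hnrnpl at 39.0, 39.7 and 37.0 CPM did not vary beyond counting error (chi-square adjusted p = 0.558 and 0.526).

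**Figure D4:**
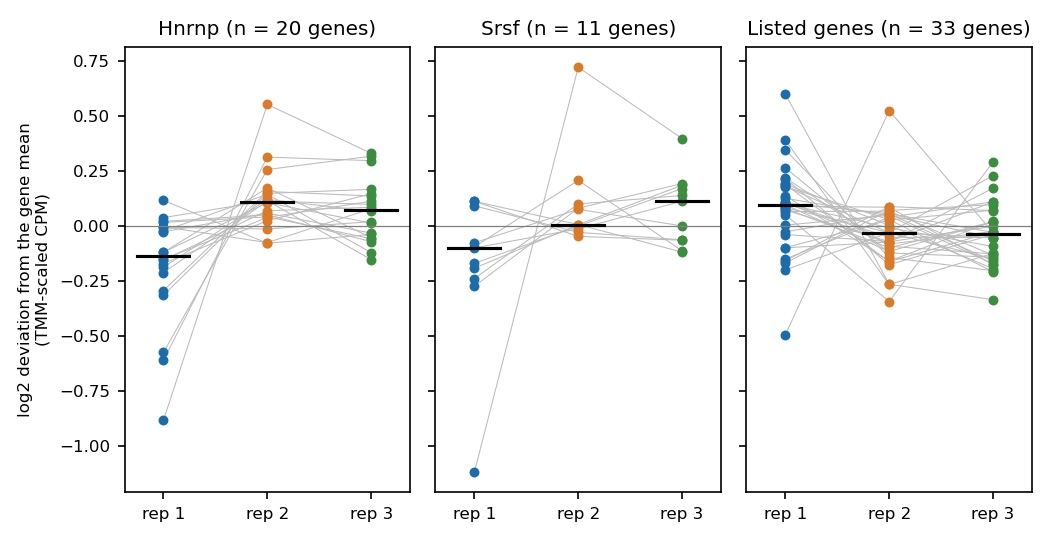
Deviation of each member's log2 scaled count from its mean over the 3 libraries, by library and gene group. In replicate 1 the medians of the Hnrnp genes (-0.14) and Srsf genes (-0.10) lie below 0 and that of the listed genes (0.10) lies above it.

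The gene groups leaned in opposite directions in replicate 1. It was the lowest library for 12 of 20 Hnrnp genes (60%) and 7 of 11 Srsf genes (63.6%), but for 7 of 33 listed genes (21.2%), against 40.4% of all genes. Conversely it was the highest library for 21 of 33 listed genes (63.6%), among them all 4 Elavl and all 3 Ptbp genes, against 1 of 20 Hnrnp genes (5%) and 37.8% of all genes. The median log2 deviation in replicate 1 was -0.14 for the Hnrnp genes, -0.10 for the Srsf genes and 0.10 for the listed genes, and -0.01 over all genes. Over all genes this deviation also moved with exon length, with a median of -0.22 in the fifth of shortest genes (73 to 2705 bases) and 0.12 in the fifth of longest (8066 to 123179 bases). Srsf9 has 1653 bases of merged exons, Hnrnpa0 2678 and Hnrnpa1 3153, while the Elavl genes range from 5387 to 10363. Hnrnpdl and Khdrbs2, also low in replicate 1 (log2 deviations of -0.57 and -0.50), are longer, at 4818 and 10291 bases. The part of length in the difference between the groups was not tested.

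**Figure D5:**
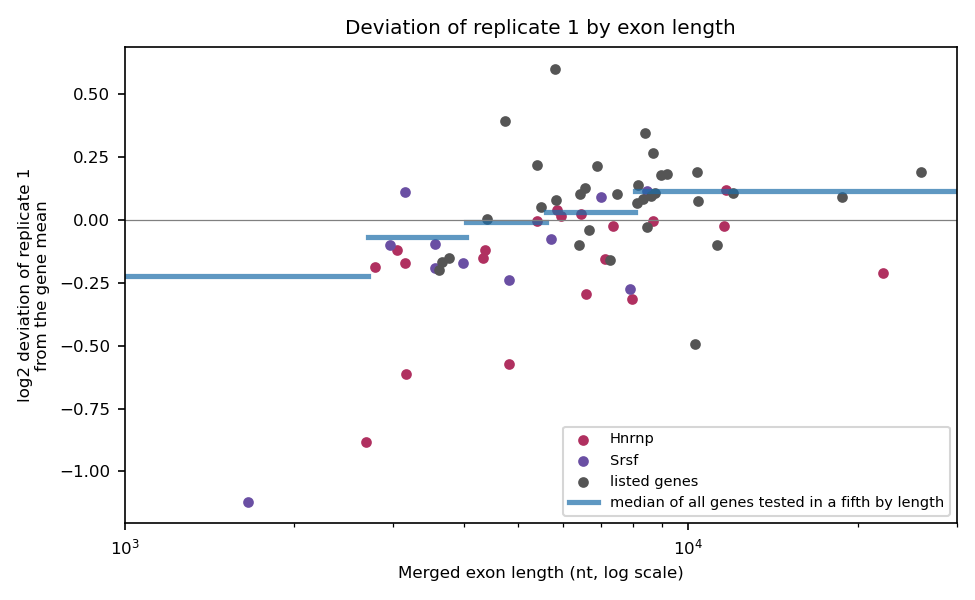
Log2 deviation in replicate 1 of each member against its merged exon length (bases, log axis), with the medians of all genes in 5 bins of length. The medians of all genes climb from -0.22 in the shortest bin to 0.12 in the longest, and Srsf9, Hnrnpa0, Hnrnpa1, Hnrnpdl and Khdrbs2 lie far below them.

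The promoters of the 3 Srsf and Hnrnp genes with the largest ratio between libraries are given here as a description. A link between promoter sequence and the low values in replicate 1 was not tested. Each is the 250 bases before the transcript start of Srsf9 (chr5:115326927-115327176, plus strand), Hnrnpa0 (chr13:58128557-58128806, minus strand) and Hnrnpa1 (chr15:103240147-103240396, plus strand), from RefSeq on GRCm38.p6. Capitals mark matches on either strand to the CCAAT box (searched as CCAAT), the GC box (searched as GGGCGG) and the TATA box (searched as TATAAA), and no matches overlapped one another.
Srsf9: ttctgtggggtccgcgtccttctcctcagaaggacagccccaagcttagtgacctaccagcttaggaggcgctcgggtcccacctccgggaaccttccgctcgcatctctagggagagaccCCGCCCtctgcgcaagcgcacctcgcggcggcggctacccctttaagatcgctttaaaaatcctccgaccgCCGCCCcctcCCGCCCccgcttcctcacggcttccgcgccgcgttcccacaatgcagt
Hnrnpa0: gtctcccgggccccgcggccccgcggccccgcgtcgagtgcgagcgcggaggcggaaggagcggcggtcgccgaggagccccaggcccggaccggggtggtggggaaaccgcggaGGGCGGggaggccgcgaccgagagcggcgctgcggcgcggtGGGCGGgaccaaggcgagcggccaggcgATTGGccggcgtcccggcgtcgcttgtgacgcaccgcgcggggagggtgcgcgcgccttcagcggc
Hnrnpa1: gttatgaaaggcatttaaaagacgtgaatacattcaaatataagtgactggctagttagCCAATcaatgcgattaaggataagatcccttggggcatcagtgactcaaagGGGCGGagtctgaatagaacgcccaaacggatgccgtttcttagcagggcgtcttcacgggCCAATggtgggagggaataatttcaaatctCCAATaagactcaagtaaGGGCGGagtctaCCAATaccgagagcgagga
Srsf9 held 0 CCAAT and 3 GC boxes, Hnrnpa0 held 1 and 2, and Hnrnpa1 held 4 and 2. None of the 3 held the TATA box. Of 32851 promoter windows of all genes, 33.9% held a CCAAT box, 32.7% a GC box and 12.4% a TATA box. Promoter windows were found for 57 members, 101 in all, and 45.5% of them held a CCAAT box, 64.4% a GC box and 7.92% a TATA box. Their GC content had a median of 64.0%, against 52.4% over all windows, and was 65.2% for Srsf9, 81.2% for Hnrnpa0 and 46.0% for Hnrnpa1.

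Partner genes of these proteins were present too, and their counts stand beside the 43.2% of all genes called above the median gene and the 42.7% called below it. Among genes for kinases, a phosphatase subunit and nuclear import of SR proteins, 9 of 10 could be tested. Of these, 6 were called above the median gene, 1 below and 2 on neither side. Ppp1cc, a phosphatase subunit, stood at 84.8 ± 5.31 TPM, Prpf4b, a kinase of the spliceosome, at 80.2 ± 4.56 TPM and the SR kinase Clk2 at 47.1 ± 8.49 TPM. The lowest were the SR kinases Clk1 at 3.85 ± 0.579 TPM and Srpk3 at 0.554 ± 0.324 TPM. Among 14 SR-related coactivators, 11 were above, 1 below and 2 on neither side. Srrm2, a scaffold of nuclear speckles, led at 605 ± 132 TPM, followed by Luc7l3 at 259 ± 37.1 TPM and Srrm1 at 129.5 ± 14.6 TPM, and Tra2b (16.2 ± 1.56 TPM) and Acin1 (22.6 ± 0.761 TPM) were lowest.

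Of 26 core spliceosome genes 25 could be tested, and 12 were above the median gene, 6 below and 7 on neither side. Prpf8, at the catalytic centre, had 211 ± 27.2 TPM, Prpf19 had 123 ± 21.5 TPM and the Sm protein Snrpd1 had 96.7 ± 34.0 TPM. Snrpc, of the U1 particle, had 1.63 ± 0.782 TPM, and Snrpf had 0, 1 and 1 reads, within the 3 reads that a count of 0 allows. Replicate 1 was the lowest library for 19 of the 25 core genes (76.0%), against 40.4% of all genes. The median log2 deviation there was -0.30 for the core genes and -0.01 over all genes. The part of exon length in this difference was not tested. Of 34 other RNA-binding protein genes 30 could be tested, and 21 were above, 4 below and 5 on neither side. G3bp2, a stress granule protein, had 523 ± 67.6 TPM, Adarb2, the third member of the editing enzyme family, had 347 ± 70.3 TPM, and Stau2, a dendritic transport protein, had 228 ± 14.7 TPM. Rbm4, Igf2bp1 and Esrp1 had 0 reads in every library, which allows up to 0.209, 0.215 and 0.207 CPM in replicates 1, 2 and 3 from counting error alone. Esrp1 is an epithelial splicing factor, and its relative Esrp2 had 0, 11 and 0 reads. Copies and overlapping exons were searched for the members and not for partner genes. The low counts of Snrpf and Rbm4 therefore do not show that these genes are silent.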

How the data were processed

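Ribosome-bound RNA of 3 libraries was analysed from raw read counts per gene symbol, deposited by the authors as 1 file per library and not normalized. The submitters' processing notes name STAR 2.0.0e, HTSeq and mm10 with no role for any of them. For the annotation, counting mode and strand setting nothing is given in the sources used here. Reads of a gene and of a neighbour overlapping it on the other strand are thus not separable. Files held 32531 gene symbols each. The 6 further lines, which hold no gene, stayed out of totals. Records on no feature were 11.9%, 11.0% and 13.1% of the total in replicates 1, 2 and 3, 2.49%, 2.83% and 2.68% were ambiguous and 11.2%, 11.3% and 13.1% had no unique alignment. Columns of other samples numbered 0. A count of 0 allows 3 counts, and intervals of this kind cover counting error only.

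TPM was computed here from the counts and merged exon lengths of GENCODE M21 (GRCm38, which mm10 denotes). Symbols matched directly numbered 23161, those matched by an older name 737 and those without a length 8633. All 66 members had a length. Genes with a length and a mean of at least 1 CPM (12456) entered limma 3.58.1 fits on log2(TPM + 0.1), which understates differences of low genes. Each gene was set against the library's median gene, or against 1 member of its family, with an intercept only, two-sided, and Benjamini-Hochberg adjustment over all genes tested at 0.05. The gene of comparison was the family member best known outside neurons, otherwise the first named. Variation was tested by chi-square on counts against TMM-scaled totals over 12949 genes (edgeR 4.0.16), with DESeq2 1.42.0 size factors as an alternative. Other alternatives were no length correction, the longest transcript, pseudocounts of 1 and 0.01, no filter, unmoderated spread, total counts, a likelihood-ratio (G) test and leaving out each library. The tests were tested on simulated data. Sequence features were computed with Biopython 1.88, figures were drawn with matplotlib 3.10.9, and tables were handled with pandas 2.3.3 and NumPy 2.4.6 under Python 3.11.15. Fits ran under R 4.3.3.

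The members and lists were chosen with earlier results of these data known. All members are named. Values in every library are given for the listed genes and, among Srsf and Hnrnp genes, for the 3 with the highest and the 3 with the lowest mean TPM. Of each partner list the 3 highest and 2 lowest were named, and members that varied between libraries could be added. Of the partner list of other RNA-binding proteins, 3 genes tied at 0 were named in place of 2. Hnrnpk was given as the gene of comparison. The pattern of replicate 1 was described after it had been seen. Protein sequences were not used here. A further comparison within a family is not reported here.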

Additional observations from a re-analysis of the deposited data

How the results depend on the processing

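No paired analysis was possible because the libraries form 1 group. Without each library in turn, members called as varying numbered 25 to 51, listed genes 17 to 29, Srsf and Hnrnp genes 8 to 22 and all genes 5542 to 8071, each lowest without replicate 1. The sign of 23 values changed, 8 of them called neither as reported nor under the alternative and 15 called in at least 1 of the settings. Of the 15, without length correction these were the level of Srsf9 (-0.76), Khdrbs3 against Khdrbs1 (-0.0054), Srsf12 (-0.47) and Srsf7 (-0.22) against Srsf1, and Hnrnpa1 (-0.11), Hnrnpab (-0.57) and Hnrnpu (0.0325) against Hnrnpk. With the longest transcript they were Srsf10 against Srsf1 (0.53), and Hnrnpa1 (-0.18), Hnrnpab (-0.24), Hnrnpd (-0.46) and Hnrnph1 (-0.42) against Hnrnpk. With genes of low counts kept in they were the levels of Srrm3 (0.18), Fxr2 (0.33) and Hnrnph3 (0.80). Of 50 differences between paralogues, 28 kept direction and call without length correction, 34 with the longest transcript, 49 with either no filter or a pseudocount of 1, 50 with a pseudocount of 0.01, 47 with an unmoderated spread, and 45, 40 and 43 without replicates 1, 2 and 3. Of 64 levels, 56 to 64 did so in each setting. Exon length, which the annotation gives and these data do not measure, was the choice that moved the most differences. With 3 libraries of 1 group the spread is estimated from few values, and with 2 libraries from fewer. Khdrbs2, Ptbp1, Msi1 and Srsf4 rest on 55 to 170 reads a library, and Mbnl3 and Hnrnpa1l2 on 5 to 15.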
